A study of Mus musculus with 2 samples.

Results

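Death receptor and p53 response genes were read in 2 preparations labelled as isolated Sertoli cells, one from busulphan-treated and one from untreated mice. The members were all non-control probes that the array files name Fas, Fasl, Tnfrsf10b, Casp8, Birc3, Diablo, Cdkn1a or Mdm2, which gave 14 probes for 8 genes out of 15208 probes and 11109 gene names. Of the 14 probes, 13 were well above background on both arrays. The remaining one, a Tnfrsf10b probe, was well above background on the busulphan array only. Sertoli cells are the somatic cells that line the seminiferous tubule and support the germ cells. The busulphan preparation came from adult male Swiss mice, 3 months old, taken 1 month after 25 mg/kg of this alkylating drug. The control preparation came from male Swiss mice of the same age that received none. Both were digested with collagenase and hyaluronidase, collected on a cell strainer and not cultured, and the number of mice behind each one is not stated in the labels. Each was hybridised with Cy3 to 1 single-colour Agilent array, so n = 1 per group, there is no test, and every direction compares these 2 libraries and not the treatments in general.

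Death receptors are surface proteins of the TNF receptor superfamily. When the ligand FasL binds Fas, or TRAIL binds the receptor encoded by Tnfrsf10b, the adaptor FADD recruits caspase-8, which cuts effector caspases and the Bcl2 family protein Bid. Inhibitor of apoptosis proteins such as that of Birc3 hold this signal back, and Diablo (Smac), released from mitochondria, binds those inhibitors. The tumour suppressor p53 answers DNA damage by switching on genes that include Cdkn1a, Mdm2, Fas and Tnfrsf10b. In the testis the Fas system is best known for a proposed part in the death of germ cells, with FasL reported in Sertoli cells and also in germ cells.

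Markers fixed for other cell types showed that both preparations held more than Sertoli cells. All 22 Sertoli cell markers matched were well above background on both arrays, and 20 of them passed 2-fold upward in the busulphan library and none downward, at a median log2 ratio of 3.34. All 13 spermatid markers were also above background on both arrays, and all were at least 2-fold lower in the busulphan library, at a median of -5.97 with 7 values that are bounds because of saturated spots. Summed over each list's brightest probes, in units of the array's 75th percentile, the Sertoli markers came to 330 in the busulphan library and 39.3 in the control library. The same sum for spermatid markers was 42.3 in the busulphan library and 545 in the control library. Saturated spots make the busulphan sum for Sertoli markers and the control sum for spermatid markers lower limits. Sox9, a Sertoli transcription factor, had a log2 ratio of 5.12 (other probes 2.24 to 4.96), and Prm1, a sperm protamine, one of -1.83 as a bound with its other probes at -3.65 and -2.93. In bulk RNA of this kind, fewer cells of a type and less RNA per cell cannot be told apart. Of 14 spermatocyte markers 12 were lower and none higher, and of 18 macrophage markers 12 were higher and 2 lower. Medians of the other lists lay nearer 0, at 0.26 for spermatogonium, 0.30 for Leydig cell, 1.02 for peritubular myoid cell and -0.13 for endothelial cell markers. The part of this change in cell markers in the member values below was not tested.

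**Figure D1:**
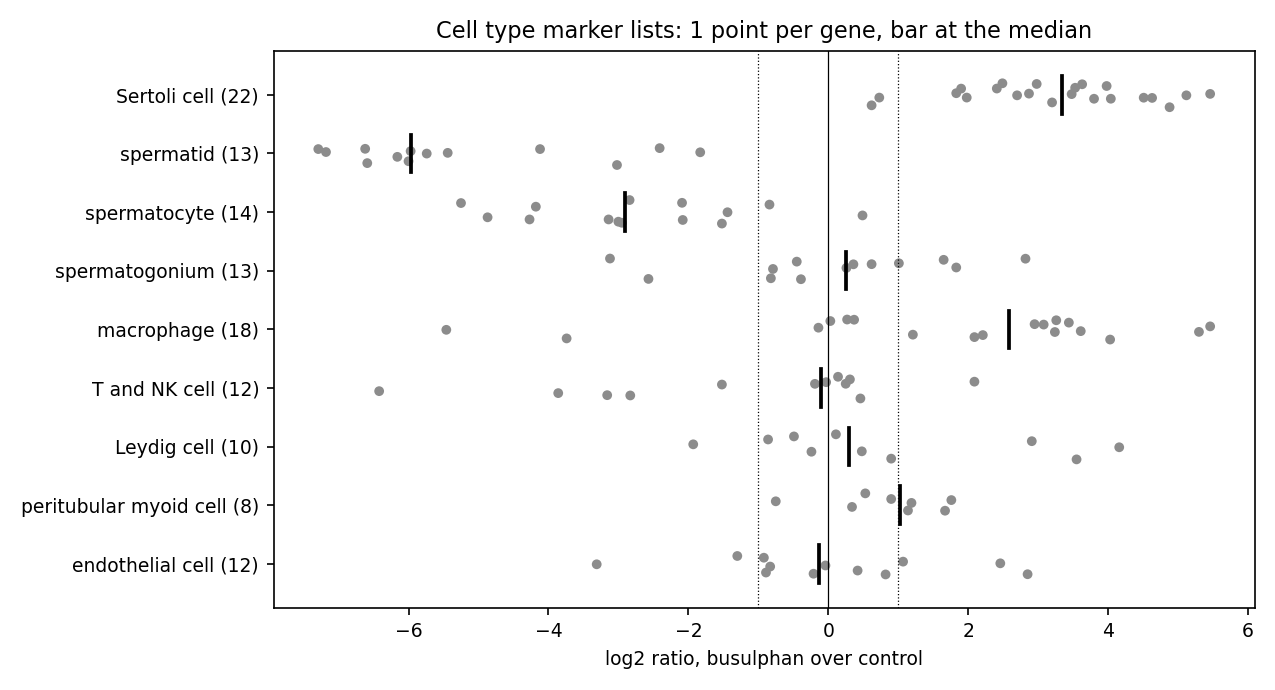
Log2 ratio of busulphan over control for marker genes of 9 cell types, 1 point per gene with the number compared in brackets, a black bar at the median and dotted lines at 2-fold. Sertoli cell markers lie to the right with a median of 3.34, and spermatid markers to the left with a median of -5.97.

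The probe sequences of Fas, Tnfrsf10b and Mdm2 are printed because the probes of each of these genes gave unlike ratios and read different stretches of its transcripts. All probes have 60 bases. A probe is printed whole, 5′ to 3′, where at least 1 forward reading frame runs through it without a stop codon, and otherwise by its first 30 bases, with no base capitalised. Coordinates are on mm9. The position is a number in the files that no header defines, read here as the probe's start on its transcript. No annotation of exons, introns or untranslated regions comes with these files.
Fas at position 447 of transcript variant 2, chr19:34383733-34383792, plus strand: ggagagactctttaaaatgaaaacacaata
Fas at position 1127 of transcript variant 1, chr19:34401902-34401961, plus strand: caactcctggtgtgttctctttgccagcaa
Tnfrsf10b at position 749, chr14:70175991-70176048, plus strand: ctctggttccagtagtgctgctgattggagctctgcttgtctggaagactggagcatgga
Tnfrsf10b at position 844, chr14:70177538-70177597, plus strand: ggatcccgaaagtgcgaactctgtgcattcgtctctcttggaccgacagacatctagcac
Tnfrsf10b at position 2149, chr14:70183189-70183248, plus strand: gcaccggatccagaaggagaaataactacc
Mdm2 at position 921, chr10:117129725-117129784, minus strand: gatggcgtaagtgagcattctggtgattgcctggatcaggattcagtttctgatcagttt
Mdm2 at position 2650, chr10:117126278-117126337, minus strand: cattcagaaagactgaatcagaacatggat

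Taken by their brightest probes, 4 of the 8 genes passed 2-fold upward in busulphan (Fas, Birc3, Cdkn1a and Casp8), 3 passed it downward (Tnfrsf10b, Fasl and Diablo), and Mdm2 lay within 2-fold. Among all 9441 genes compared, 31.3% were at least 2-fold higher and 29.5% at least 2-fold lower, so differences of this size were common in this pair of libraries. Of the 14 member probes, 6 were at least 2-fold higher and 6 lower, against 31.6% higher and 29.0% lower over 12852 probes. A log2 ratio here is the busulphan level minus the control level, each being log2 of the processed signal minus that of the array's 75th percentile (a signal of 905 on the busulphan array and 1046 on the control array). The values in signal units below are not scaled in this way. The median log2 ratio was 1.33 over the 8 genes and 0.07 over all genes, but no member gene lay between -0.69 (Mdm2) and 3.34 (Casp8). Over the 14 member probes the median was -0.05, and over all probes 0.10. When the arrays were scaled to spike-in controls instead, the median of all genes shifted by -0.88, which made 1525 genes higher and 4382 lower in place of 2952 and 2784. The 4 higher members stayed at least 2-fold higher under that scaling, and Mdm2 joined the lower ones.

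**Figure D2:**
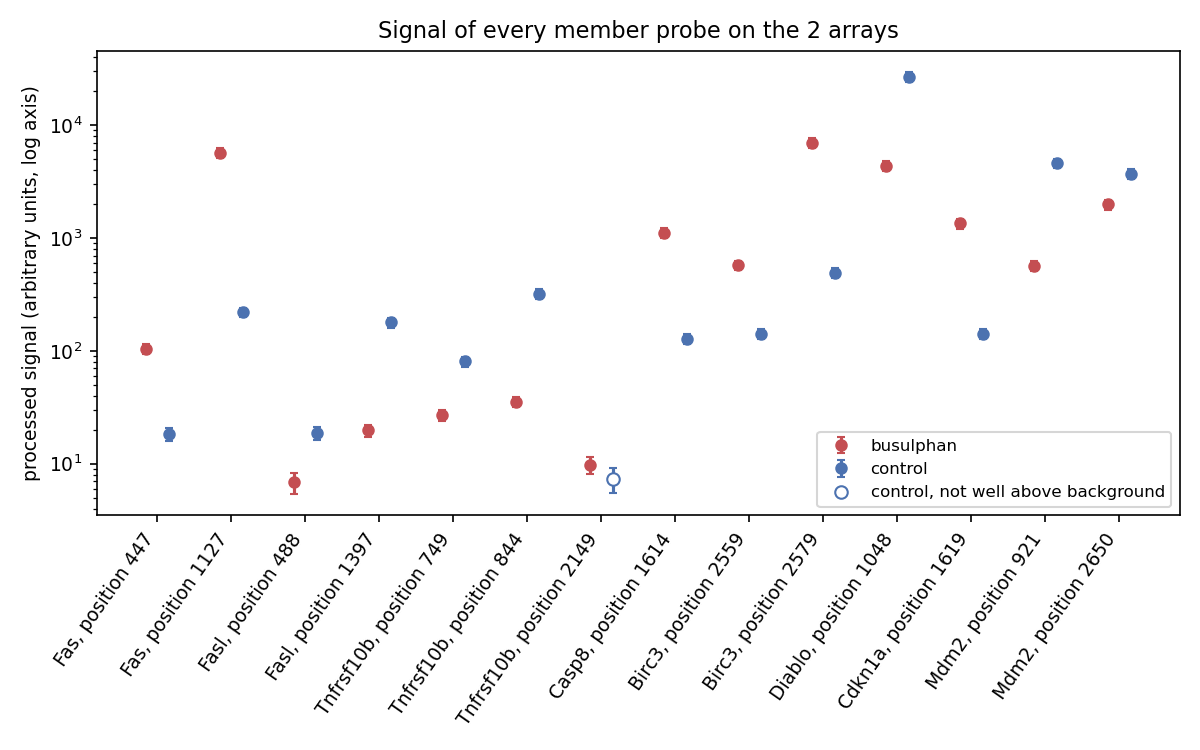
Processed signal (arbitrary units, log axis) of every member probe on the busulphan array and on the control array, labelled by gene and transcript position, with bars for the scanner software's error on 1 spot. Fas at position 1127 lies at 5662 on the busulphan array and 219.8 on the control array, and Diablo at 4366 on the busulphan array and 27028 on the control array.

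Fas, the death receptor itself, had the highest ratio of the members. Its probe on transcript variant 1 read 5662 ± 566 in the busulphan library and 219.8 ± 22 in the control library (the ± here and below is the scanner software's error on 1 spot). The log2 ratio was 4.90 ± 0.20 (29.8-fold higher), above 99.8% of all genes compared. The probe on transcript variant 2 read 104.9 ± 10.6 in the busulphan library and 18.4 ± 2.46 in the control library, a log2 ratio of 2.72 ± 0.24. Both Fas probes were higher in the busulphan library. The software's error covers the reading of a spot and holds no spread between preparations. With normexp background correction, which adds an offset and shrinks ratios of dim spots, the variant 2 probe had a log2 ratio of 1.29 and the variant 1 probe 4.47.

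Fasl, which encodes the ligand of Fas, was lower in the busulphan library by both of its probes. Both were dim there, and the probe at position 488 was dim in the control library too. At position 1397 of its transcript, chr1:163711300-163711359 on the minus strand, it read 19.8 ± 2.40 in the busulphan library and 178.5 ± 17.9 in the control library. The log2 ratio was -2.97 ± 0.23 (7.81-fold lower), below which lay 10.2% of all genes. At position 488 it read 6.84 ± 1.48 in the busulphan library and 18.7 ± 2.42 in the control library, a log2 ratio of -1.25 ± 0.36. With normexp the ratios became -1.43 at position 1397 and -0.15 at position 488, and the second was no longer a 2-fold difference. T and NK cells also express Fasl. Of their 21 markers matched, 10 were not well above background in the busulphan library and 10 in the control library. Gzma, Gzmb, Prf1, Klrb1c, Klrd1, Ncr1, Cd8a, Cd28 and Ifng were below it on both arrays. Of 12 such markers compared, 1 was higher and 5 lower, and the whole list's summed level was 0.653 in the busulphan library and 4.29 in the control library. Most of the control sum was Cd3d, without which the sums were 0.615 in the busulphan library and 0.97 in the control library. Cd3e stood at 0.46, with signals of 26.4 in the busulphan library and 22.1 in the control library. The higher level of spermatid and spermatocyte markers in the control library moved the same way as Fasl, and its part in this difference was not tested.

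Tnfrsf10b, the mouse receptor for TRAIL, did not follow Fas. Its brightest probe, at position 844, read 35.4 ± 3.81 in the busulphan library and 320.7 ± 32.1 in the control library, a log2 ratio of -2.97 ± 0.21 (7.84-fold lower). The probe at position 749 read 27.1 ± 3.05 in the busulphan library and 80.6 ± 8.22 in the control library, at -1.37 ± 0.22, and with normexp it was at -0.55, within 2-fold. The probe at position 2149 read 9.77 ± 1.73 in the busulphan library and 7.30 ± 1.85 in the control library, where it was not well above background, so its log2 ratio is a bound of at least 0.59 (1.51-fold higher), which was 0.22 with normexp and 0.00 with spike-in scaling. Both probes measured on both arrays were lower in the busulphan library. Tnfsf10, the gene of TRAIL, was not well above background on either array.

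**Figure D3:**
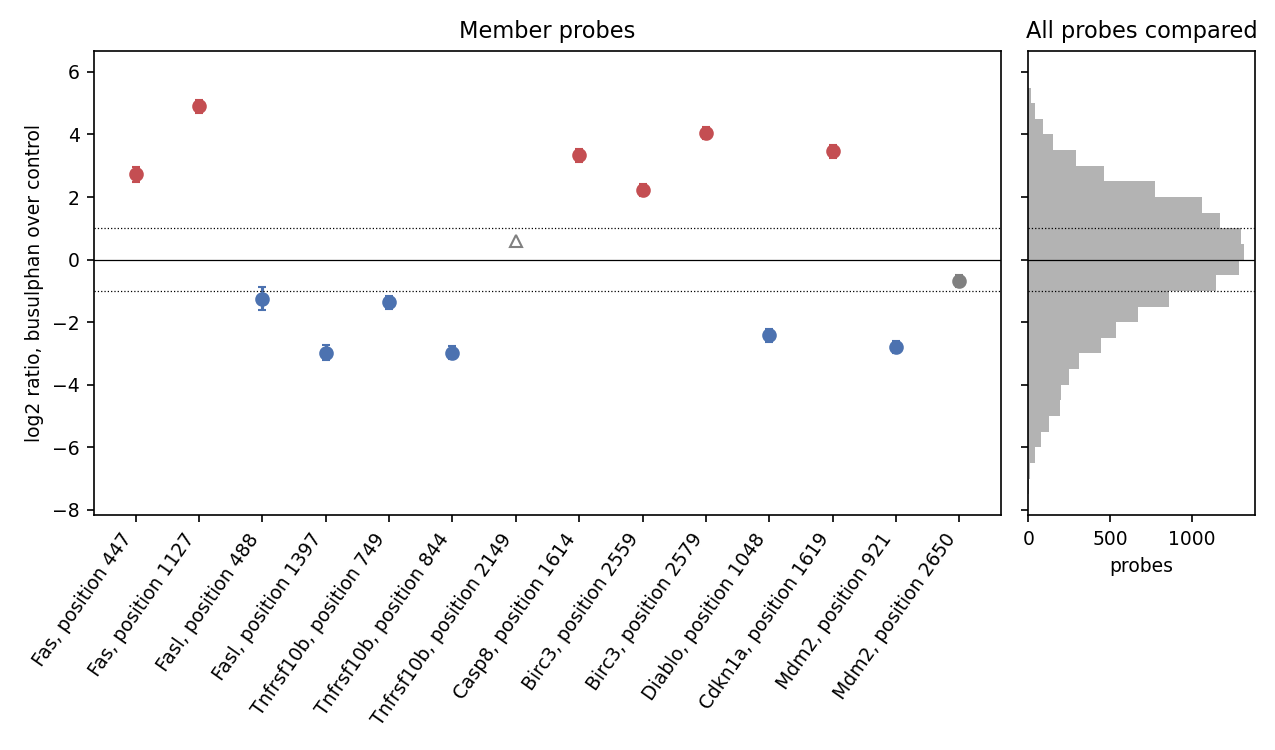
Left, log2 ratio of busulphan over control for each member probe with the software error, in red where at least 2-fold higher, blue where at least 2-fold lower and grey between, the open triangle being a lower bound. Right, the number of probes at each ratio over all 12852 compared, on the same axis; the Fas probe at position 1127 is at 4.90 and the Fasl and Tnfrsf10b probes reach -2.97.

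Downstream of the receptors, Casp8, the initiator caspase of this pathway, was higher. Its single probe, at position 1614 and chr1:58901601-58901660 on the plus strand, read 1115 ± 112 in the busulphan library and 127.4 ± 12.9 in the control library. The log2 ratio was 3.34 ± 0.21 (10.1-fold higher), above 96.8% of all genes. It was 2.46 with spike-in scaling and 2.78 with normexp.

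Birc3, encoding an inhibitor of apoptosis that NF-kB induces, was higher by both probes. The probe at position 2579 of its RefSeq transcript, chr9:7848873-7848932 on the minus strand, read 7002 ± 700 in the busulphan library and 491.5 ± 49.2 in the control library, a log2 ratio of 4.04 ± 0.20 (16.5-fold higher). The probe at position 2559 of a cDNA clone, chr9:7856162-7856221, read 573.5 ± 57.4 in the busulphan library and 141.1 ± 14.2 in the control library, at 2.23 ± 0.20. The RefSeq probe was among the brightest spots of the busulphan array, above 95.2% of its probes, and above 65.8% of those on the control array.

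Diablo, the mitochondrial antagonist of these inhibitors, went the other way. Its probe, at position 1048 and chr5:123962170-123962229 on the minus strand, read 4366 ± 437 in the busulphan library and 27028 ± 2703 in the control library. The log2 ratio was -2.42 ± 0.20 (5.36-fold lower), and it lay between -3.30 and -1.67 over the settings tried. The spot was above 97.6% of the probes on the control array and was not saturated. A further probe, described as a Diablo cDNA clone but not named Diablo, was within 2-fold at -0.43 (see Other observations).

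Cdkn1a, encoding the cell cycle inhibitor p21 and a standard readout of p53 activity, was higher. Its probe, at position 1619 and chr17:29237377-29237436 on the plus strand, read 1350 ± 135 in the busulphan library and 141.5 ± 14.3 in the control library. The log2 ratio was 3.46 ± 0.20, above 97.3% of all genes, and lay between 2.58 and 3.64 over the settings tried.

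Mdm2, which encodes the ubiquitin ligase that removes p53 and is itself a p53 target, did not share the direction of Cdkn1a. The brightest probe, at position 2650, read 1984 ± 198 in the busulphan library and 3689 ± 369 in the control library, a log2 ratio of -0.69 ± 0.20. The probe at position 921 read 570 ± 57.0 in the busulphan library and 4600 ± 460 in the control library, at -2.80 ± 0.20 (6.98-fold lower). Both probes were negative, and 1 of them passed 2-fold. With spike-in scaling the brightest probe also passed it, at -1.57.

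A p53 response element was searched by name in the RefSeq promoter windows of build GRCm38.p6, each reaching from 250 bases before to 50 bases after a gene start. The element was taken as a pair of 10-base half-sites of the p53 consensus at most 13 bases apart, on either strand. It was found in 24 of 32851 windows (0.0731%), and among the 8 windows of 7 member genes in 1, that of Cdkn1a. At least 1 half-site, windows with the whole element included, was found in 8.36% of all windows and in 3 member windows, those of Fasl, Mdm2 and Cdkn1a. The window of another Cdkn1a start, chr17:29093519-29093818, held neither element nor half-site, and Tnfrsf10b had no window. Elements farther from a gene start lie outside these windows, so a window without a match does not show that a gene has none. The 250 bases before this Cdkn1a start are printed because its window was the only member window with a match. The matched element of 32 bases is in capitals. It is the first match to this strict pattern, so its ends need not be those of an element that p53 uses. The 10 bases right after it miss the half-site pattern only at their first letter and were not marked. A match is a description of the letters and is not evidence of binding here.
Cdkn1a upstream window, GRCm38.p6, chr17:29090729-29090978, plus strand: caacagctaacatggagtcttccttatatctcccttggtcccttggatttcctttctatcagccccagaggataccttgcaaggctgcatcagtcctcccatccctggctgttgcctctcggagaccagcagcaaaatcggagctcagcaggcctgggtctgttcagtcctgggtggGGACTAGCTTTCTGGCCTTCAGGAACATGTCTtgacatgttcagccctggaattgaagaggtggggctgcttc

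All 5 members with several probes had probes that differed by more than spot error. The log2 ratio of the later probe minus that of the earlier one was 2.18 ± 0.32 for Fas, with 18169 bases of genome between the probe starts. It was 2.12 ± 0.29 for Mdm2 over 3447 bases, 1.81 ± 0.29 for Birc3 over 7289 bases, and -1.72 ± 0.43 for Fasl over 6779 bases. For the Tnfrsf10b probes at positions 749 and 844 it was -1.61 ± 0.30. The probe farther along the gene on its strand thus had the higher ratio in Fas, Mdm2 and Birc3 and the lower one in Fasl and in this Tnfrsf10b pair. Such gaps were not rare on this array. Among 2321 genes with at least 2 probes measured and unsaturated on both arrays, the median gap was 0.74, 42.1% had a gap of at least 1, and the member gaps ranked between the 71.2nd percentile (Tnfrsf10b) and the 79.4th (Fas). Probes of opposite sign were found in 26.8% of these genes, and in none of the 5 members once the dim Tnfrsf10b probe was set aside.

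**Figure D4:**
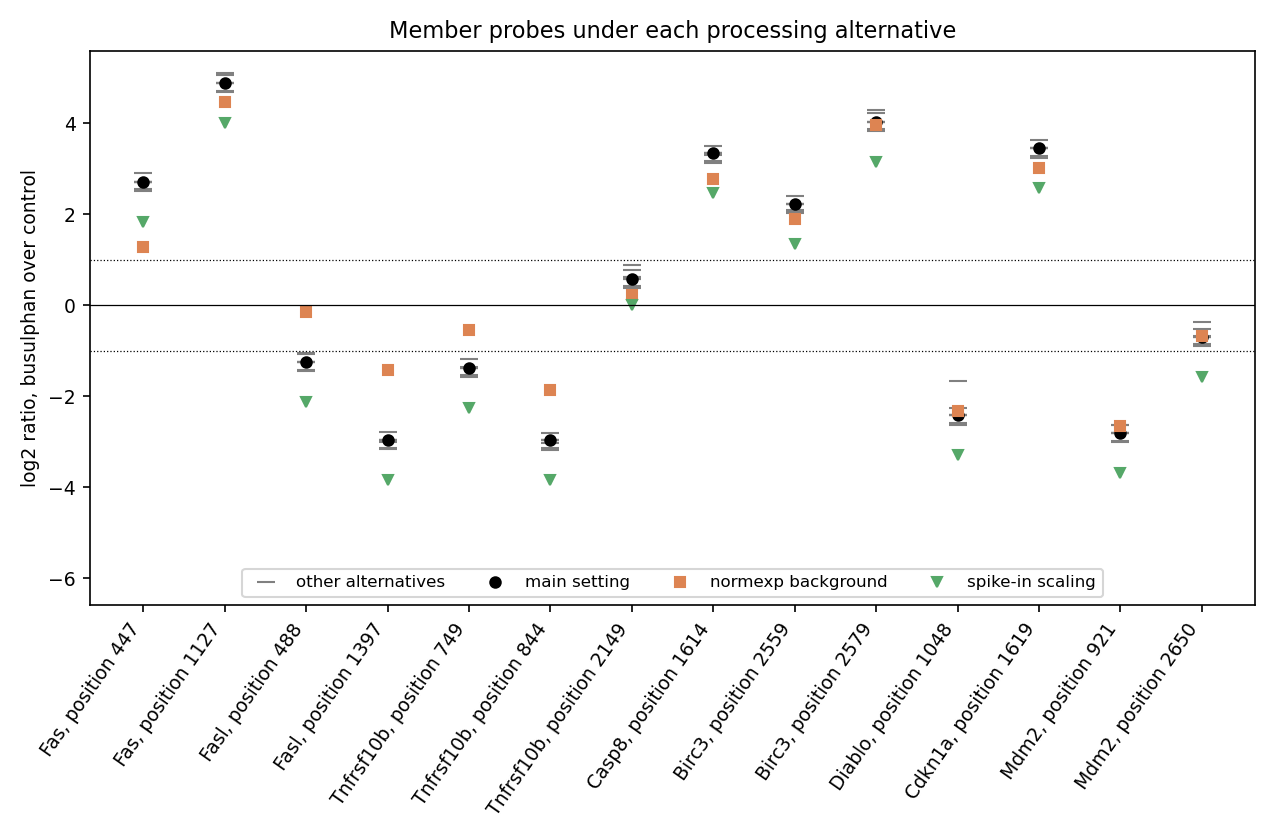
Log2 ratio of busulphan over control of each member probe under the main setting (black), normexp background correction (orange squares), spike-in scaling (green triangles) and the other alternatives (grey dashes), with dotted lines at 2-fold. Fas at position 1127 stays between 4.01 and 5.11, while Fasl at position 488 ranges from -2.13 to -0.15.

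Around the members, receptors and ligands of the TNF superfamily, not all of them death receptors, were described from a list of 22 genes. Of the list, 17 genes could be compared. Of these, 10 were at least 2-fold higher and 5 lower, at a median log2 ratio of 1.75 (0.70 with normexp and 0.87 with spike-in scaling). Over all genes, 31.3% were higher and 29.5% lower. Without the 3 members, 9 of 14 were higher and 3 lower. The highest were Tnfrsf1b, the second TNF receptor, at 4.71 (its other probe gave -0.53) and Tnfrsf12a, the TWEAK receptor, at 4.66. Neither is classed as a death receptor. The lowest were Ngfr, the low-affinity neurotrophin receptor, at -4.07 (other probe -1.63) and Edar, the ectodysplasin receptor, at -2.68. Tnfrsf1a, the main TNF death receptor, stood at 2.22, with signals of 3960 in the busulphan library and 982.7 in the control library. Tnf itself had 0.84, within 2-fold.

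The signalling complex below the receptors gave 8 genes higher, 1 lower and 5 within 2-fold of 14 compared, Casp8 included. The shares over all genes were 31.3% higher and 29.5% lower. The list median was 1.27 (0.80 with normexp and 0.38 with spike-in scaling). Fadd, the adaptor, stood at 1.03, just past 2-fold, and its other probe gave 2.71. Cflar, which encodes the caspase-8 inhibitor c-FLIP, had 2.41 (other probes 2.29 to 3.47), and Ripk1, a kinase shared by survival and death signalling, 2.47. Casp6, an effector caspase, had 2.91. Dedd, which encodes a death effector domain protein, was lowest at -2.93, and Traf2, an adaptor of the TNF receptors, had -0.58. The initiator caspase and its inhibitor were both higher in the busulphan library.

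A list of inhibitors of apoptosis, their antagonists and genes of the mitochondrial death route had 15 genes compared. Of these, 5 were higher, 4 lower and 6 within 2-fold, shares near the 31.3% and 29.5% of all genes. Among the higher ones, Cycs, Apaf1 and Endog (1.41) are neither inhibitors nor antagonists, so the shares do not describe inhibitors and antagonists alone. The median was 0.88, with 0.36 under normexp and 0.00 under spike-in scaling. Beside Birc3, its close relative Birc2 had 0.89, at signals of 4498 in the busulphan library and 2807 in the control library. Xiap, the direct caspase inhibitor, was dim in the control library. Its log2 ratio is a lower bound of 1.00, at signals of 12.97 in the busulphan library and 2.75 in the control library. Before rounding this bound lay just under 2-fold, so Xiap counts as within 2-fold here, though its ratio may be larger. Septin4, whose product antagonises Xiap and which also builds the sperm tail, was lowest at -4.09, followed by Naip2 at -3.30. The highest after Birc3 were Cycs, encoding cytochrome c, at 2.57 and Apaf1, its partner in the apoptosome, at 2.12, and Casp9, which the apoptosome activates, had 0.88.

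In the Bcl2 family, which governs release of cytochrome c, 8 of 13 genes were higher and 3 lower, at a median of 1.36 (0.48 with spike-in scaling). For all genes these shares were 31.3% higher and 29.5% lower. Bcl2l2, encoding the survival factor Bcl-w that spermatogenesis needs, was highest at 3.12, and Bid, the substrate of caspase-8, had 2.44. Bbc3, encoding the p53-induced killer Puma, had 2.40 and Bax 1.00. The lowest were Bad at -1.94, with another probe at 0.31, and Bcl2l1, encoding Bcl-xL, at -1.71 with its other probes between -1.99 and -1.21.

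Of the p53 target genes, 13 of 21 compared were at least 2-fold higher, 1 was lower (Tnfrsf10b) and 7 lay within 2-fold. Among all genes, 31.3% were higher and 29.5% lower. The median of the list was 1.29. That median was 0.89 with normexp and 0.41 with spike-in scaling, which put the median of all genes at -0.81. Without the 4 members, 11 of 17 were higher and none lower. Gadd45a, a DNA damage and stress gene, was highest after Fas and Cdkn1a at 3.42, with signals of 3229 in the busulphan library and 347.8 in the control library. Ccng1, a target of p53 in many tissues, had 0.82 and another probe at 3.01. The lowest measured non-members were Sfn at -0.26 and Pidd1 at 0.13. Of 34 listed targets, 21 matched a probe by name, so the counts describe those.

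Of 17 regulators of p53 compared, Mdm2 included, 4 were higher, 3 lower and 10 within 2-fold, against 31.3% higher and 29.5% lower over all genes. The median was -0.18, and -1.06 with spike-in scaling. Trp53, the gene of p53 itself, stood at 0.08 with signals of 522.8 in the busulphan library and 573.1 in the control library, and its other probe gave 1.76. Mdm4, the partner of Mdm2 in holding p53 back, was 4.88-fold lower at -2.29 (other probes -2.02 to -0.04). Ppm1d, a phosphatase that ends the p53 response, was lowest at -3.65, but its other probe gave 0.02. Twist1 and Hipk2 were highest at 2.23 and 1.57, and other Hipk2 probes were negative, from -2.38 to -0.35.

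Genes of NF-kB feedback and survival, the pathway of Birc3, had the highest median of the 7 lists at 2.41 (1.52 with spike-in scaling). Of 19 compared, 13 were higher and 3 lower, against 31.3% higher and 29.5% lower over all genes. Icam1, an adhesion molecule, had 3.61 and Nfkb1, a subunit of NF-kB, 3.57. Bcl2l1 at -1.71 and Sod2, the mitochondrial superoxide dismutase, at -1.28 were lowest. Macrophages express many of these genes, and macrophage markers had a median log2 ratio of 2.58, with C1qc, a complement gene of macrophages, at 4.03. Summed over the macrophage list, the level was 12.8 in the busulphan library and 63.7 in the control library. A single marker, Aif1, chosen after its value was seen, carried the control sum, reading 1230 in the busulphan library and 62716, a saturated spot, in the control library. Without it the direction turned, and the log2 ratio of the sums was 1.62, where it was -2.31 with it. The part of macrophage RNA in this list was not tested.

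**Figure D5:**
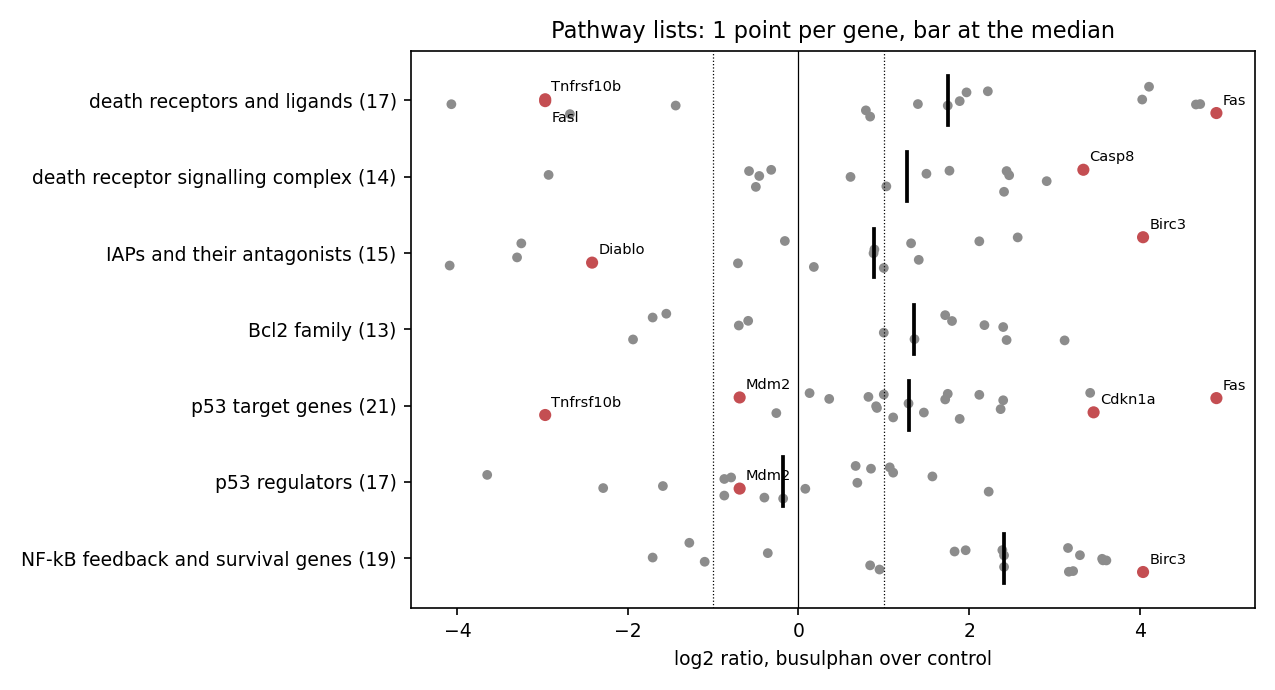
Log2 ratio of busulphan over control for the genes of 7 pathway lists, 1 point per gene with members in red and named, the number compared in brackets and a black bar at the median. The median is 2.41 for NF-kB feedback genes, 1.29 for p53 targets and -0.18 for p53 regulators. In the death receptor list Fas is highest at 4.90, and Fasl and Tnfrsf10b at -2.97 lie above the lowest gene, the non-member Ngfr at -4.07.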

How the data were processed

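Per the file headers, the deposited intensity values are processed signals that Agilent Feature Extraction 11.5.1.1 made by removing a background surface and a multiplicative spatial trend, with surrogate values for dim spots. Coordinates are those of mm9. The deposited p-value that a spot equals its background was not used directly for any call, which rested on the software's own background flag. The deposited log2 table equals log2 of these signals minus a constant per array, 9.82 for busulphan and 10.03 for control, which is log2 of its 75th percentile, so its scale and direction are known and no genes were centred. Its medians were -2.77 for busulphan and -2.94 for control.

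Values computed here were log2 of the processed signal minus that of the array's 75th percentile over non-control probes. A probe was compared if the software marked it well above background on either array, as it did for 12064 probes on the busulphan array (79.3%) and 12302 probes on the control array (80.9%). Precision is limited by the number of arrays. The 4 probes flagged as outliers and probes saturated on both arrays were left out. A probe dim or saturated on 1 array carries a bound, which was set to 0 where it pointed the other way. A gene took its brightest probe by mean level. Genes were named through their accession (13294 probes, RefSeq table of GRCm38.p6) or by the name in the files (1914). The software's error on a log2 ratio had a median of 0.20, and spots of 6 spike-in probes had a median SD of 0.06.

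With 1 array per group no test was made, and higher or lower means at least 2-fold. The members, lists and alternatives were chosen with earlier results of these data known. Named genes are all members, the 2 highest and 2 lowest measured non-members of each list, and a fixed set of pathway and marker genes whatever their value, of which 1 is not reported here. Tools were R 4.3.3 with limma 3.58.1, Python 3.11.15 and pandas 2.3.3. The ratios and bounds were tested on simulated data. The position column was checked over 3052 probe pairs of 1 accession: in 98.1% the genome distance was at least the difference in position. Of 497 closely spaced pairs, 424 had equal distances on genome and transcript.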

Additional observations from a re-analysis of the deposited data

How the results depend on the processing

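No paired analysis was possible because each group holds 1 array. All 14 alternatives of the processing were run, and a list median was read as moved past 0.40, the 95% half-width from the median software error. With normexp, the median of the death receptor list was 0.70, of the signalling complex 0.80 and of the list with inhibitors of apoptosis 0.36. With spike-in scaling, these were 0.87, 0.38 and 0.00, the Bcl2 family 0.48, p53 targets 0.41, p53 regulators -1.06 and NF-kB genes 1.52. Of 153 member probe values under alternatives, 131 were read as unmoved and 22 as moved. The cutoff was wider than the ± printed above, since the Birc3 probe at position 2559 (2.23 ± 0.20) counted as unmoved at 1.90 with normexp. All 22 moved with normexp, spike-in scaling or, for Diablo, quantile normalization (-1.67), and none of the called ratios changed sign. Higher members numbered 4 under every alternative run, and lower members 4 with spike-in scaling, at 1.5-fold and with the median over probes, which put Mdm2 at -1.75, and 3 otherwise. Past 4-fold, 1360 genes were higher and 1674 lower. Chosen after seeing the data, leaving out each marker list's largest gene turned the log2 ratio of summed levels to 1.62 for macrophage (-2.31 with it) and -0.69 for endothelial markers (1.00 with it). Signals near background limit Fasl and Tnfrsf10b.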

Other observations

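One further probe, named in the files by a transcript ID and described there as a Diablo cDNA clone, lies at chr5:123966190-123966249 on mm9. It read 352.1 in the busulphan library and 546.4 in the control library, a log2 ratio of -0.43 ± 0.20, within 2-fold, where the member probe of Diablo gave -2.42.

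Among T cell markers, chosen after their values were seen, the CD3 subunits did not move together. Cd3d read 35.1 in the busulphan library and 3467 in the control library, a log2 ratio of -6.42, while Cd3e had 0.46, Cd247 0.14 and Cd3g a bound of 0.25, and these 3 were dim on both arrays. Cd8b1 and Zap70 had ratios of -3.86 and -3.16, and Lck, a T cell kinase, 2.09.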
